A study of Rattus norvegicus with 6 samples.

Results

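The proteasome genes of HEI-OC1 cells were examined after treatment with an siRNA against Hnrnpd. They were taken by symbol and gene type: all rows annotated as protein coding whose symbol names a subunit, regulator or chaperone of the Psma, Psmb, Psmc, Psmd, Psme, Psmf or Psmg series, together with Pomp and Adrm1. The symbol pattern found 50 of the 18718 genes in the deposited count table. One of them, Psmc3ip, only carries a similar symbol: it encodes a partner of PSMC3 with a role in meiotic recombination and is no subunit. A filter on low counts left 48 of the 50 rows for testing. Psma8, a testis-type alpha subunit, and Psmb11, the thymus-type beta subunit, did not pass it: Psma8 had 3 to 5 counts in the siHnrnpd libraries and 5 to 6 in the control libraries, and Psmb11 had 1 to 2 counts in the siHnrnpd libraries and 0 to 1 in the control libraries. A count of 0 allows up to 3 counts.

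HEI-OC1 is an established auditory line derived from the organ of Corti of the inner ear. The knockdown group, siHnrnpd 1 to 3, had been treated with an siRNA against Hnrnpd, which encodes AUF1, a protein that binds AU-rich stretches of mRNA and influences their decay. The control group, control 1 to 3, had been treated with a control siRNA, and both groups grew in the same medium with serum. The dose and duration of the siRNA treatment and the number of siRNAs are not given in these sources, nor whether the 3 libraries of a group came from separate cultures, so a p-value here measures spread among libraries that could be technical. The labels name rat as the organism, whereas this line is usually described as murine, and the reads' species was not tested. Levels compared between genes carry that limit, while each gene's comparison between groups rests on the same row in all 6 libraries.

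The proteasome is the main protease for proteins tagged with ubiquitin. Its barrel, the 20S core, stacks alpha rings at the ends and beta rings in the middle, and the Psmb5, Psmb6 and Psmb7 subunits carry the cutting sites. Interferon-gamma induces substitutes for these, Psmb8, Psmb9 and Psmb10, which form the immunoproteasome, and the cap proteins Psme1 and Psme2, which form PA28. Immunoproteasomes shape the peptides that class I MHC molecules present, whereas 26S proteasomes, capped by the 19S particle, serve general protein turnover. Leukocytes carry much immunoproteasome, and other cells make it mainly under interferon.

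The libraries held 28984535 to 35842904 gene counts. Hnrnpd (listed as Hnrpd) averaged 187 ± 12.2 CPM (counts scaled to library size) in siHnrnpd libraries and 297 ± 25.9 CPM in control libraries (SD, n = 3 each), a log2 change of −0.67 (SE 0.082, adjusted p = 0.0426, edgeR quasi-likelihood test with Benjamini-Hochberg adjustment). With 1 library left out, the edgeR adjusted p of Hnrnpd was 0.0458 without siHnrnpd 2 and between 0.0508 and 0.319 without any of the other 5. Of the hair cell markers, 7 of 11 had a row: Myo6 had 1101 to 1225 counts per library, Myo7a had 2 to 18, and Gfi1 and Calb2 had 0 to 1. The hair cell list summed to 32.1 to 37.4 CPM in siHnrnpd libraries and 33.9 to 41.5 CPM in control libraries, almost all of it from Myo6. Fibroblast and mesenchymal markers, 10 of 10 with a row, summed to 7201 to 8609 CPM in siHnrnpd libraries and 7059 to 7576 CPM in control libraries. That sum was carried mainly by Vim (113968 to 146691 counts) and Col1a1 (55635 to 95503 counts), while Dcn had 2 to 9 and Postn 2 to 10 counts. Leukocyte markers, 9 of 12 with a row, summed to 3.40 to 4.29 CPM in siHnrnpd libraries and 3.78 to 3.90 CPM in control libraries. Ptprc (CD45), which marks leukocytes, had 0 to 1 counts and Cd3e had 0 to 2, while Cd68 had 72 to 93. Supporting cell markers, 6 of 10 with a row, summed to 77.3 to 101 CPM in siHnrnpd libraries and 89.4 to 103.5 CPM in control libraries. Most of that came from Cdkn1b (2014 to 2533 counts) and Jag1 (536 to 670 counts). Fgfr3 had 64 to 117 and Gata3 31 to 73 counts, while Prox1 and Otoa had 0 to 2. The library siHnrnpd 3 stood apart on the interferon-inducible members, so their log2 changes are given with and without it.

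The upstream sequences of the interferon-inducible members and of Psmb5 are shown because the results turn on the difference between these sets. They are the 250 bases before the annotated gene start in RefSeq, rat assembly GRCr8, written 5′ to 3′ on the strand of the gene. The table held promoters for 45 of the 50 rows and for 33469 genes in all. Capitals mark matches, on either strand, to letters associated with known factors: TTCNNNGAA, the interferon-gamma element called GAS; GAAA repeated after any 2 bases, a core of the ISRE element bound by interferon regulatory factors; and TGACNNNGC, a core of the antioxidant response element bound by NFE2L1 and NFE2L2. The windows lie at chr20:4657032-4657281 (minus strand) for Psmb8, chr20:4668750-4668999 (plus strand) for Psmb9, chr19:50743293-50743542 (minus strand) for Psmb10, chr15:33038721-33038970 (plus strand) for Psme1, chr15:33052752-33053001 (minus strand) for Psme2 and chr15:32047380-32047629 (minus strand) for Psmb5.
Psmb8: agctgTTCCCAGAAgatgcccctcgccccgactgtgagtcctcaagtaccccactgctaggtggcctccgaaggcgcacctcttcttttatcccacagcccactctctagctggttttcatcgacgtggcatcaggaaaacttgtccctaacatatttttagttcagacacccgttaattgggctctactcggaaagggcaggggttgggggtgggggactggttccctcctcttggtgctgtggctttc
Psmb9: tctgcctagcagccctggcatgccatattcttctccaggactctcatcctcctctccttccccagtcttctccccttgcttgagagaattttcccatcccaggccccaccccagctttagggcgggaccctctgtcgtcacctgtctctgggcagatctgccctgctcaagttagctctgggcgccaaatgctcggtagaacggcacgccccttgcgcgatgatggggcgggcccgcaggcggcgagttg
Psmb10: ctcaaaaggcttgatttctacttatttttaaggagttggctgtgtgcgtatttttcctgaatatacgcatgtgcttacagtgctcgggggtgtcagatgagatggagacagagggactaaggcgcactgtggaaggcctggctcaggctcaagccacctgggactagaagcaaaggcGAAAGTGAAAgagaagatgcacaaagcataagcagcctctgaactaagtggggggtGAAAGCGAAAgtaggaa
Psme1: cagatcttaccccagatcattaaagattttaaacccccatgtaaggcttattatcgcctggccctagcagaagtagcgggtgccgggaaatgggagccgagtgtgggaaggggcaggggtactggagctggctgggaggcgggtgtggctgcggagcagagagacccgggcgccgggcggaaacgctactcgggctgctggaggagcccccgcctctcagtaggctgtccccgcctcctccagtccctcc
Psme2: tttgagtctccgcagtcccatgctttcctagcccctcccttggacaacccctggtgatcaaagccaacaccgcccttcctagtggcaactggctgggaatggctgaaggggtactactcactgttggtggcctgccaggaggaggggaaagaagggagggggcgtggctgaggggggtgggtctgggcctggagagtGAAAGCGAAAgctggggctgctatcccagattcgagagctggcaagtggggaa
Psmb5: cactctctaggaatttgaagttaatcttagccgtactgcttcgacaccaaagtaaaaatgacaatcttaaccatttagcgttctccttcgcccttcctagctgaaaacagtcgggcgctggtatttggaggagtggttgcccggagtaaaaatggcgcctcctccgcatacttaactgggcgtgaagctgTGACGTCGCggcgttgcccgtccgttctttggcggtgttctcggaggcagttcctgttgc

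The GAS letters occurred in the Psmb8 window, at 245 to 237 bases before the start. They were held by 4 of the 45 members (8.89%), against 7.67% of all promoters. The other holders, all outside the interferon-inducible set, were Psmc6, Psmd3 and Psmd7. The ISRE core occurred 2 times in the Psmb10 window, at 73 to 64 and at 17 to 8 bases before the start, and 1 time in the Psme2 window, at 53 to 44 bases. It was held by 5 of the 45 members (11.1%), against 3.41% of all promoters. Besides Psmb10 and Psme2 these were Psma4, Psmb3 and Psmd7, which are outside the interferon-inducible set. The antioxidant response core occurred in 2 of the 3 constitutive catalytic genes, Psmb5 and Psmb6, in none of the 5 interferon-inducible members, and in 8 of the 45 members (17.8%), against 10.1% of all promoters. The commoner promoter letters GGGCGG (GC box) were held by 32 of the 45 members (71.1%), against 30.5% of all promoters, and CCAAT by 21 (46.7%), against 34.0%. A match is a description of letters, and its absence says only that these letters are not in the window.

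In the same annotation Psmb8 and Psmb9 lie within the MHC region of chromosome 20, in the order Tap2, Psmb8, Tap1, Psmb9, where Tap1 and Tap2 encode the transporter that carries proteasome products into the endoplasmic reticulum. Psme1 and Psme2 lie close together on chromosome 15 with Emc9 between them, followed by Rnf31 and Irf9. Psmb5 lies beside Psmb11 on chromosome 15. Psmb10 lies on chromosome 19, Psmb6 on chromosome 10 and Psmb7 on chromosome 3.

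In siHnrnpd cells the 5 interferon-inducible members had lower mean levels than in control cells, whereas the 3 constitutive catalytic subunits and the rest of the particle lay close to their control levels. No member passed the threshold: edgeR called 0 of 48 at an adjusted p under 0.05, against 0.0815% of all 12268 genes tested (10 genes, of which 0.0571% of all were lower and 0.0245% higher in siHnrnpd). At an unadjusted p under 0.05 it took 3 members lower in siHnrnpd, against 5.2% of all genes, and 3 higher, against 5.84% of all genes. The lower ones were Psmb9, Psme2 and Psme1, and the higher ones were Psmd7, Psmg3 and Psmd8. DESeq2, another count test, called 1 member at an adjusted p under 0.05, Psmb9 (adjusted p = 0.0202), which fell in siHnrnpd cells by that test. That call was lost when any 1 of the 6 libraries was left out (DESeq2 adjusted p between 0.0636 and 0.570, the lowest without siHnrnpd 3), and without siHnrnpd 2 DESeq2 called Psme1 and Psme2 instead. Of all genes DESeq2 called 1.37%, and 0.888% as lower. Without a filter on low counts edgeR also called 1 member, Psmb9, as lower (adjusted p = 0.0310), where it called 0.785% of 18718 genes, 0.54% as lower and 0.246% as higher. In bulk RNA, fewer cells of a type and less RNA per cell cannot be told apart.

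The immunosubunits are described first. Psmb9, which replaces Psmb6, had 47.0, 46.3 and 28.7 FPKM (the authors' values, scaled by gene length and library depth) in siHnrnpd 1 to 3, against 51.5, 63.9 and 65.4 FPKM in control 1 to 3. The groups did not overlap, siHnrnpd 3 was the lowest of all libraries, and control 1 was the lowest control. The means were 40.7 ± 10.4 FPKM in siHnrnpd and 60.3 ± 7.61 FPKM in control libraries (SD, n = 3 each). The log2 change was −0.58 (SE 0.179), an siHnrnpd level of 66.9% of control, with an adjusted p of 0.322 in edgeR and 0.0202 in DESeq2. Without siHnrnpd 3 the log2 change was −0.38.

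Psmb8, which replaces Psmb5, was far lower in level, with 3.90, 3.96 and 2.16 FPKM in siHnrnpd 1 to 3 and 4.0, 4.76 and 4.75 FPKM in control 1 to 3. These values rest on 329, 319 and 166 counts in siHnrnpd and 282, 366 and 410 counts in control libraries. The groups did not overlap, but siHnrnpd 1 and 2 lay just under control 1, and siHnrnpd 3 lay well below the other 5. The log2 change was −0.44 (SE 0.215, adjusted p = 0.481, edgeR), and −0.21 without siHnrnpd 3.

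Psmb10, which replaces Psmb7, had 67.0, 63.5 and 49.7 FPKM in siHnrnpd 1 to 3 and 59.6, 78.4 and 83.3 FPKM in control 1 to 3. The groups overlapped, since control 1 lay below siHnrnpd 1 and 2. The log2 change was −0.31 (SE 0.144, adjusted p = 0.461, edgeR), and −0.19 without siHnrnpd 3.

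The PA28 genes were abundant in both groups. Psme1, its alpha subunit, had 287, 290.04 and 209.68 FPKM in siHnrnpd 1 to 3, against 309, 348 and 343 FPKM in control 1 to 3. Psme2, its beta subunit, had 121, 122 and 89.6 FPKM in siHnrnpd 1 to 3, against 131, 148 and 156 FPKM in control 1 to 3. Neither gene's groups overlapped, and for both siHnrnpd 3 was the lowest library and control 1 the lowest control. The log2 change was −0.36 for Psme1 (SE 0.126, adjusted p = 0.347, edgeR) and −0.40 for Psme2 (SE 0.127, adjusted p = 0.323, edgeR). Without siHnrnpd 3 the log2 changes were −0.22 for Psme1 and −0.26 for Psme2. The ratio of Psme1 to Psme2 by FPKM was 2.36, 2.37 and 2.34 in siHnrnpd 1 to 3 and 2.36, 2.34 and 2.20 in control 1 to 3, so the PA28 genes stood in nearly the same proportion in 5 of the 6 libraries.

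**Figure D1:**
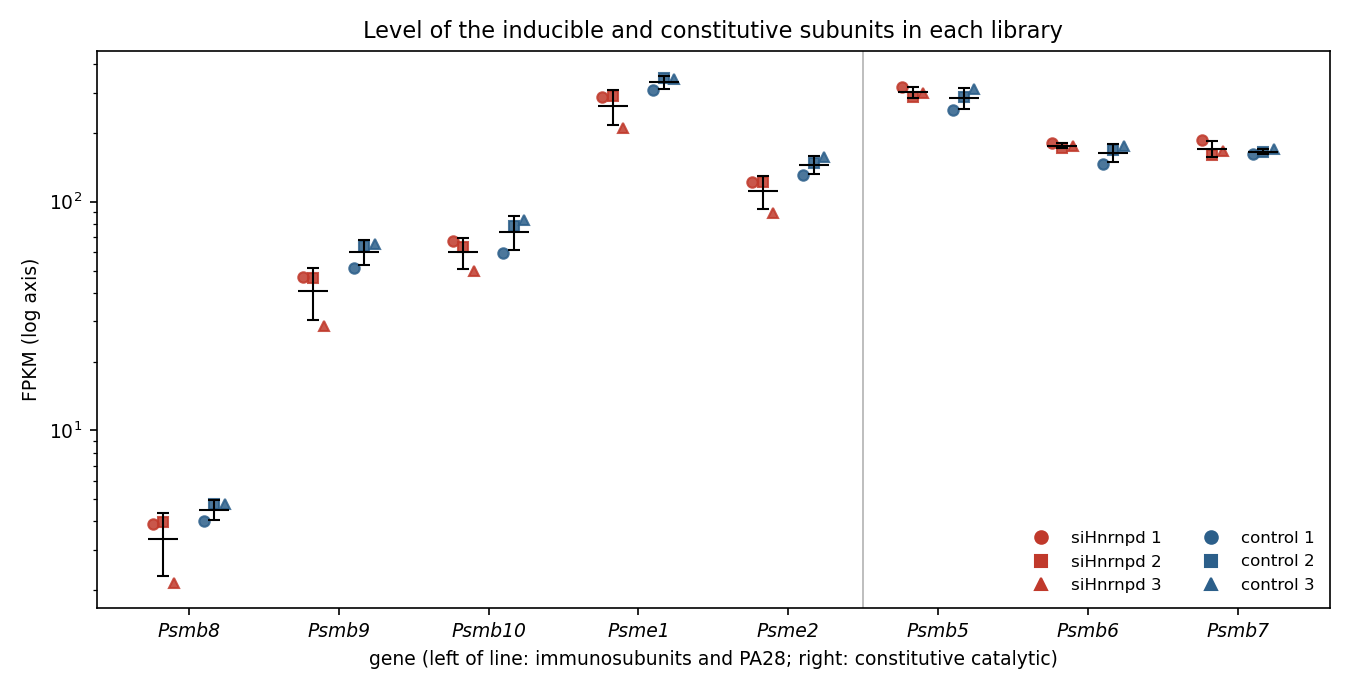
Level in FPKM (log axis) of the 5 interferon-inducible members and the 3 constitutive catalytic subunits, with siHnrnpd libraries left of control libraries for each gene, 1 point per library, long bars at the group means and error bars of 1 SD (n = 3 each). For Psmb8, Psmb9, Psme1 and Psme2 the 3 siHnrnpd points all lie below the 3 control points, and siHnrnpd 3 is the lowest.

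The constitutive catalytic subunits showed no such separation. Psmb5, which carries the chymotrypsin-like site, had 319, 286 and 298 FPKM in siHnrnpd 1 to 3 and 252, 288 and 310.01 FPKM in control 1 to 3. Psmb6, which carries the caspase-like site, had 179.9, 172 and 175 FPKM in siHnrnpd 1 to 3 and 147, 168 and 176 FPKM in control 1 to 3. Psmb7, which carries the trypsin-like site, had 187, 159 and 166 FPKM in siHnrnpd 1 to 3 and 161, 165 and 170.45 FPKM in control 1 to 3. The groups overlapped for all 3 genes, and siHnrnpd 3 lay within the control range for each. Their log2 changes were 0.071 for Psmb5 (SE 0.0835, adjusted p = 0.797), 0.086 for Psmb6 (SE 0.0767, adjusted p = 0.720) and 0.028 for Psmb7 (SE 0.0739, adjusted p = 0.916), all by edgeR. The sign for Psmb5 and Psmb7 turned when control 1 was left out, to −0.017 and −0.0017, and for Psmb7 also when siHnrnpd 1 was left out, to −0.044.

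Each immunosubunit was then set against the subunit it replaces, as a ratio of FPKM within a library. Psmb9 stood at 26.1%, 27.0% and 16.4% of Psmb6 in siHnrnpd 1 to 3, against 35.1%, 37.9% and 37.2% in control 1 to 3. Psmb8 stood at 1.22%, 1.38% and 0.725% of Psmb5 in siHnrnpd 1 to 3, against 1.59%, 1.65% and 1.53% in control 1 to 3. In both pairs the siHnrnpd ratios were below those of every control library, and the control ratios were close together. Psmb10 stood at 35.9%, 39.9% and 29.9% of Psmb7 in siHnrnpd 1 to 3, against 37.0%, 47.4% and 48.9% in control 1 to 3, and these groups overlapped through siHnrnpd 2 and control 1. The mean ratios were 23.2 ± 5.91% in siHnrnpd and 36.8 ± 1.46% in control libraries for Psmb9 to Psmb6 (SD, n = 3 each). They were 1.11 ± 0.343% in siHnrnpd and 1.59 ± 0.0594% in control libraries for Psmb8 to Psmb5, and 35.2 ± 5.02% in siHnrnpd and 44.4 ± 6.50% in control libraries for Psmb10 to Psmb7.

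On the log2 scale the ratio of Psmb9 to Psmb6 differed by −0.70 between siHnrnpd and control (exact two-sided permutation test p = 0.1, adjusted over the 3 pairs 0.15). For Psmb8 to Psmb5 the difference was −0.57 (exact permutation p = 0.1, adjusted 0.15), and for Psmb10 to Psmb7 it was −0.34 (exact permutation p = 0.2, adjusted 0.2). The smallest p that 3 against 3 libraries allow is 0.1, so none of these could pass 0.05. Without siHnrnpd 3 the difference was −0.47 for Psmb9 to Psmb6, −0.29 for Psmb8 to Psmb5 and −0.22 for Psmb10 to Psmb7.

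**Figure D2:**
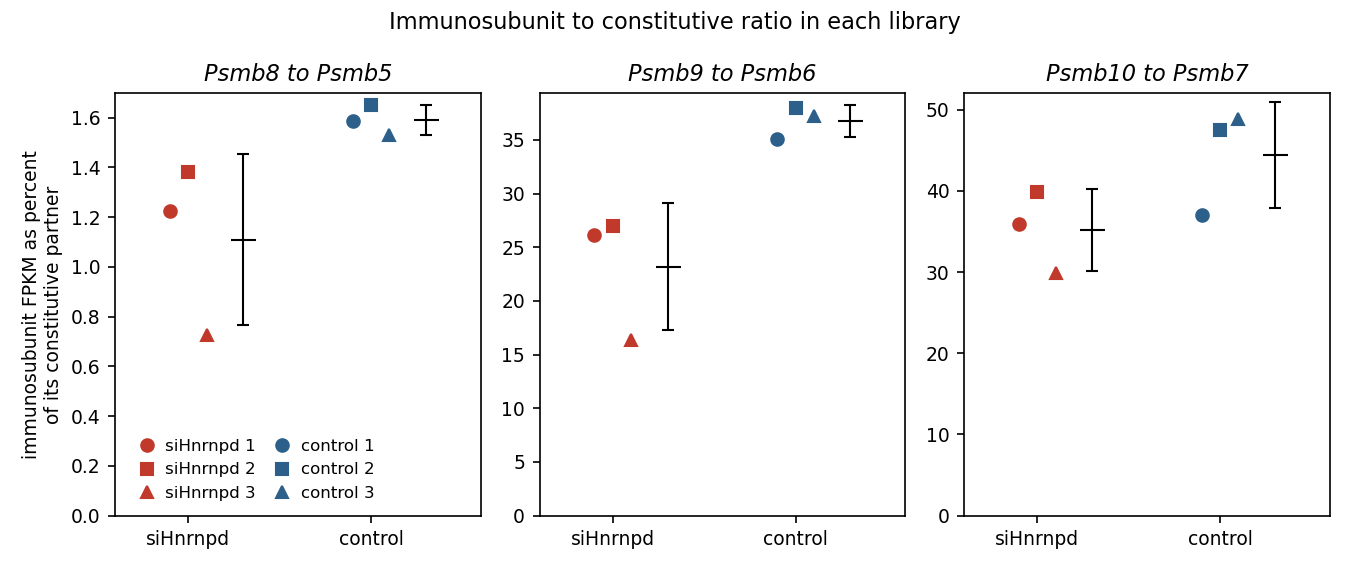
Level of each immunosubunit as a percent of the constitutive subunit it replaces, by FPKM, with siHnrnpd libraries left of control libraries, 1 point per library and, beside the points, the mean with 1 SD (n = 3 each); each panel has its own axis from 0. Psmb9 lies at 16.4% to 27.0% of Psmb6 in siHnrnpd libraries and at 35.1% to 37.9% in control libraries, and the groups overlap only for Psmb10 against Psmb7.

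Taking the 6 catalytic genes as a whole, Psmb8, Psmb9 and Psmb10 made up 14.7%, 15.6% and 11.2% of their summed FPKM in siHnrnpd 1 to 3, against 17.05%, 19.1% and 18.9% in control 1 to 3. The means were 13.8 ± 2.32% in siHnrnpd and 18.4 ± 1.15% in control libraries, a difference of −4.57 percentage points, given as a description without a test. The summed level of the 3 immunosubunits was 118, 114 and 80.6 FPKM in siHnrnpd 1 to 3 and 115, 147 and 153 FPKM in control 1 to 3, and these ranges overlapped. The summed level of the 3 constitutive subunits was 686, 617 and 639.8 FPKM in siHnrnpd 1 to 3 and 559.8, 622 and 656 FPKM in control 1 to 3. Control 1 was thus the lowest control in both sums, and its share of 17.05% still lay above the 3 siHnrnpd shares. Within the immunosubunit sum, Psmb9 took 39.9%, 40.7% and 35.6% in siHnrnpd 1 to 3 and 44.8%, 43.5% and 42.6% in control 1 to 3, Psmb10 took 55.8% to 61.7% in siHnrnpd and 51.7% to 54.3% in control libraries, and Psmb8 took 2.68% to 3.48% in siHnrnpd and 3.10% to 3.47% in control libraries. Psmb10 was the most abundant immunosubunit in all 6 libraries.

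As a set, the 5 interferon-inducible members had log2 changes below 0 in 5 of 5 cases. Their median was −0.40, and −0.22 without siHnrnpd 3. Their adjusted p ranged between 0.322 and 0.481 (edgeR). By CPM, 4 of the 5, all but Psmb10, had every siHnrnpd library below every control library, against 8.57% of all genes tested. The other 43 tested rows had a median log2 change of 0.031, with 28 positive and 15 negative values ranging from −0.15 to 0.20. Among all genes tested the median was 0.0054 and 48.3% were negative. The largest negative value among the 43 other rows, −0.15, was smaller in size than the smallest among the 5, −0.31. Without siHnrnpd 3 the smallest of the 5, that of Psmb10, was −0.19, against −0.13 for the lowest other row. Without control 3 the order failed, with Psma6 at −0.24 and Psmc6 at −0.24 against −0.23 for Psmb10.

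**Figure D3:**
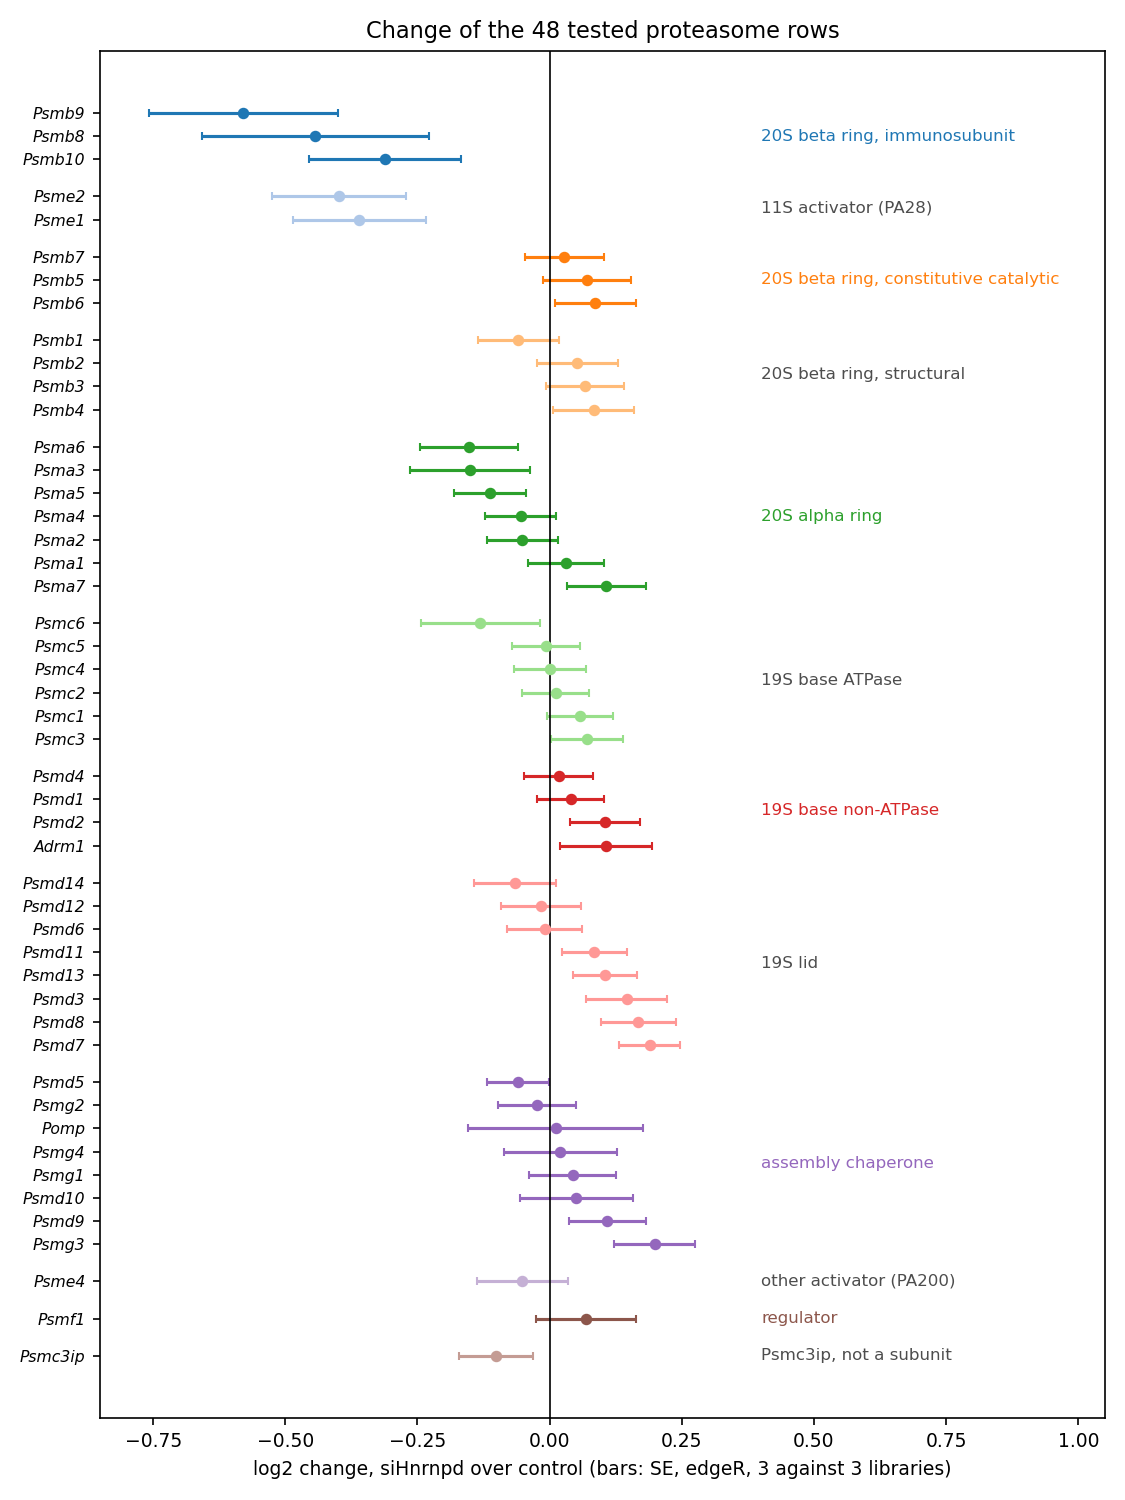
Log2 change (siHnrnpd over control, edgeR) of the 48 tested rows with bars of 1 SE, ordered by role. The 5 interferon-inducible members lie between −0.58 and −0.31, and the other 43 rows lie between −0.15 and 0.20.

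The libraries differed within each group in how far the interferon-inducible members departed from the control mean. Relative to the mean of the controls, the median log2 deviation of the 5 members was −0.22, −0.20 and −0.74 in siHnrnpd 1 to 3 and −0.16, 0.11 and 0.086 in control 1 to 3. All 5 members lay below the control mean in each of the 3 siHnrnpd libraries and also in control 1, and 0 of 5 in controls 2 and 3. Psmb8 and Psmb9 both stood at −1.10 in siHnrnpd 3, Psme1 at −0.71, Psme2 at −0.74 and Psmb10 at −0.60. Over the other 43 rows the median deviation was 0.083, 0.057 and −0.046 in siHnrnpd 1 to 3 and −0.031, 0.034 and −0.0085 in control 1 to 3. Of these 43 rows, 12, 10 and 28 lay below the control mean in siHnrnpd 1 to 3, and 27, 6 and 23 in control 1 to 3. The 28 included 7 of 7 alpha ring rows (median −0.13) and 4 of 4 structural beta rows (median −0.068). Low values in siHnrnpd 3 were thus not limited to the 5 members, but each of the 5 lay below the lowest other row, Psma3 at −0.34.

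**Figure D4:**
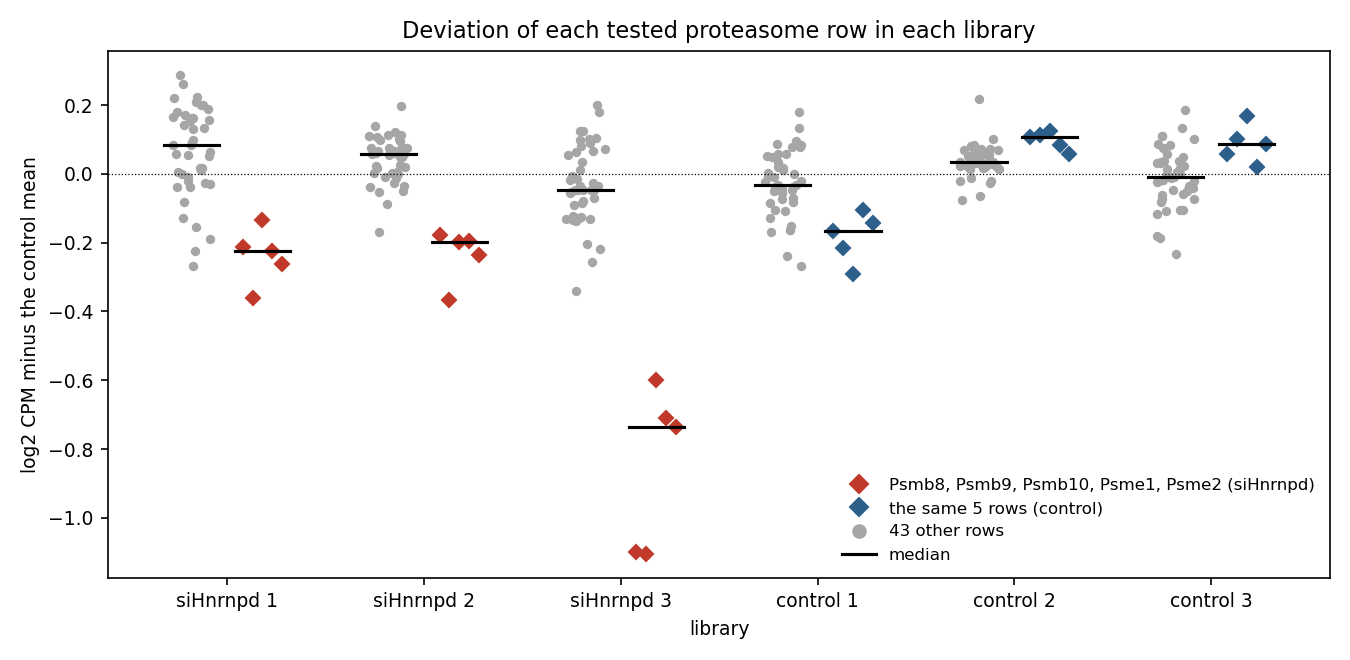
Log2 deviation from the control mean in each library, siHnrnpd libraries left of control libraries, in log2 CPM; diamonds are the 5 interferon-inducible members, grey points the other 43 tested rows and black lines their medians. The 5 members are lowest in siHnrnpd 3 (median −0.74), lie near −0.2 in siHnrnpd 1 and 2 and at −0.16 in control 1, while the median of the other 43 rows stays between −0.046 and 0.083.

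The other core subunits are structural. Of the alpha ring, whose members gate entry to the barrel, 7 of 8 rows were tested, with a median log2 change of −0.054 (2 positive, 5 negative). Psma7 had 547, 499 and 473 FPKM in siHnrnpd 1 to 3 and 458, 468 and 468 FPKM in control 1 to 3, the highest level of all members, and a log2 change of 0.11 (adjusted p = 0.627, edgeR). Psma5 had 216, 207 and 195 FPKM in siHnrnpd 1 to 3 and 214, 222 and 224 FPKM in control 1 to 3, with a log2 change of −0.11 (adjusted p = 0.567, edgeR). The groups of Psma7 were separated by FPKM and overlapped by CPM, while those of Psma5 overlapped by FPKM and were separated by CPM. The 4 structural beta subunits had a median log2 change of 0.060 (3 positive, 1 negative), and the most abundant, Psmb4, had 407, 374 and 348 FPKM in siHnrnpd 1 to 3 and 340.19, 352 and 363 FPKM in control 1 to 3 (log2 change 0.083, adjusted p = 0.731, edgeR).

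The 19S particle recognises, unfolds and feeds substrates. Its 6 base ATPases, the unfolding motor, had a median log2 change of 0.0062 (4 positive, 2 negative). Psmc3, the most abundant, had 262, 235 and 254 FPKM in siHnrnpd 1 to 3 and 224, 238 and 246 FPKM in control 1 to 3 (log2 change 0.070, adjusted p = 0.748, edgeR). Psmc6 had 49.2, 59.7 and 55.0 FPKM in siHnrnpd 1 to 3 and 66.4, 60.1 and 50.8 FPKM in control 1 to 3 (log2 change −0.13, adjusted p = 0.705, edgeR). Both genes overlapped between groups. The 4 other base subunits, which include the ubiquitin receptors Psmd4 and Adrm1, had a median of 0.072 and were positive in 4 of 4 cases. Psmd2, a scaffold that docks ubiquitin-like shuttles, had 229.84, 210.42 and 221 FPKM in siHnrnpd 1 to 3 and 195, 203 and 211 FPKM in control 1 to 3, with a log2 change of 0.10 (adjusted p = 0.591, edgeR).

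The lid, whose subunit Psmd14 removes ubiquitin, had the highest median of the groups with more than 1 row, 0.095 over 8 tested rows (5 positive, 3 negative). Without siHnrnpd 3 it was 0.090, under the 0.097 of the structural beta subunits. Psmd7, the partner of Psmd14, had 143, 142 and 146 FPKM in siHnrnpd 1 to 3, against 125, 122 and 127 FPKM in control 1 to 3. Its libraries were close together within each group, did not overlap between groups, and gave a log2 change of 0.19 (SE 0.0573, unadjusted p = 0.0085, adjusted p = 0.312, edgeR) that was 0.18 to 0.19 whichever library was left out. Psmd8, in yeast the last subunit to join the lid, had 223, 203 and 204 FPKM in siHnrnpd 1 to 3, against 174, 189 and 192 FPKM in control 1 to 3 (log2 change 0.17, SE 0.0708, adjusted p = 0.432, edgeR), also without overlap. In all, 6 of the 48 tested members had every siHnrnpd library above every control library by CPM, against 8.42% of all genes: Psmd7, Psmd8, Psmd11 and Psmd13 of the lid, Psmd2 of the base and the chaperone Psmg3. Another 6 had every siHnrnpd library below every control library by CPM, against 8.57% of all genes, which were Psmb8, Psmb9, Psme1, Psme2, Psma5 and Psmd5. By FPKM the groups of Psmd2, Psmg3, Psma5 and Psmd5 overlapped. Psmd2 had 210.42 FPKM in siHnrnpd 2 and 210.79 in control 3, and Psmd5 had 42.22 FPKM in siHnrnpd 3 and 42.17 in control 2.

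The 8 assembly chaperones, which guide the core and the base together and then leave, had a median log2 change of 0.032 (6 positive, 2 negative). Psmg3, which helps build the alpha ring, had 58.7, 51.4 and 56.4 FPKM in siHnrnpd 1 to 3, against 45.04, 46.4 and 52.0 FPKM in control 1 to 3, with a log2 change of 0.20 (SE 0.0769, adjusted p = 0.397, edgeR). By FPKM siHnrnpd 2 lay just under control 3, while by CPM the groups did not overlap. Psmg1, another alpha ring chaperone and the most abundant of the 8, had 109, 106 and 93.0 FPKM in siHnrnpd 1 to 3 and 95.2, 101.9 and 98.7 FPKM in control 1 to 3 (log2 change 0.044, adjusted p = 0.877, edgeR). Pomp, which guides the beta ring, had a log2 change of 0.012 (SE 0.166, adjusted p = 0.989, edgeR) from only 67 to 104 counts a library. Of the remaining regulators, Psme4 (PA200) had 9.87, 12.02 and 11.7 FPKM in siHnrnpd 1 to 3 and 12.1, 10.8 and 11.5 FPKM in control 1 to 3. Psmf1 (PI31), which binds the core, had 89.5, 81.3 and 75.9 FPKM in siHnrnpd 1 to 3 and 68.7, 80.5 and 83.5 FPKM in control 1 to 3. Both overlapped between groups, with log2 changes of −0.052 (adjusted p = 0.867) and 0.069 (adjusted p = 0.829) by edgeR, and Psmc3ip had a log2 change of −0.10 (adjusted p = 0.621, edgeR).

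The order of levels was taken from the control libraries, per length, within the limit on levels between genes. Psma7 led with a mean of 465 FPKM, followed by Psmb4 with 352 and Psme1 with 333 FPKM. Psmb5 was at place 8, Psmb7 at 18 and Psmb6 at 19, whereas Psmb10 was at place 34 with 73.8 FPKM, Psmb9 at 36 with 60.3 FPKM and Psmb8 at 47 with 4.503 FPKM. Psme2 was at place 21 with 145 FPKM, below Psme1. Only Pomp, Psma8 and Psmb11 had lower control means than Psmb8. Of the 49 pairs of neighbours in this order, 35 had overlapping ranges over the control libraries, so places within a stretch of like levels do not differ beyond their spread.

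**Figure D5:**
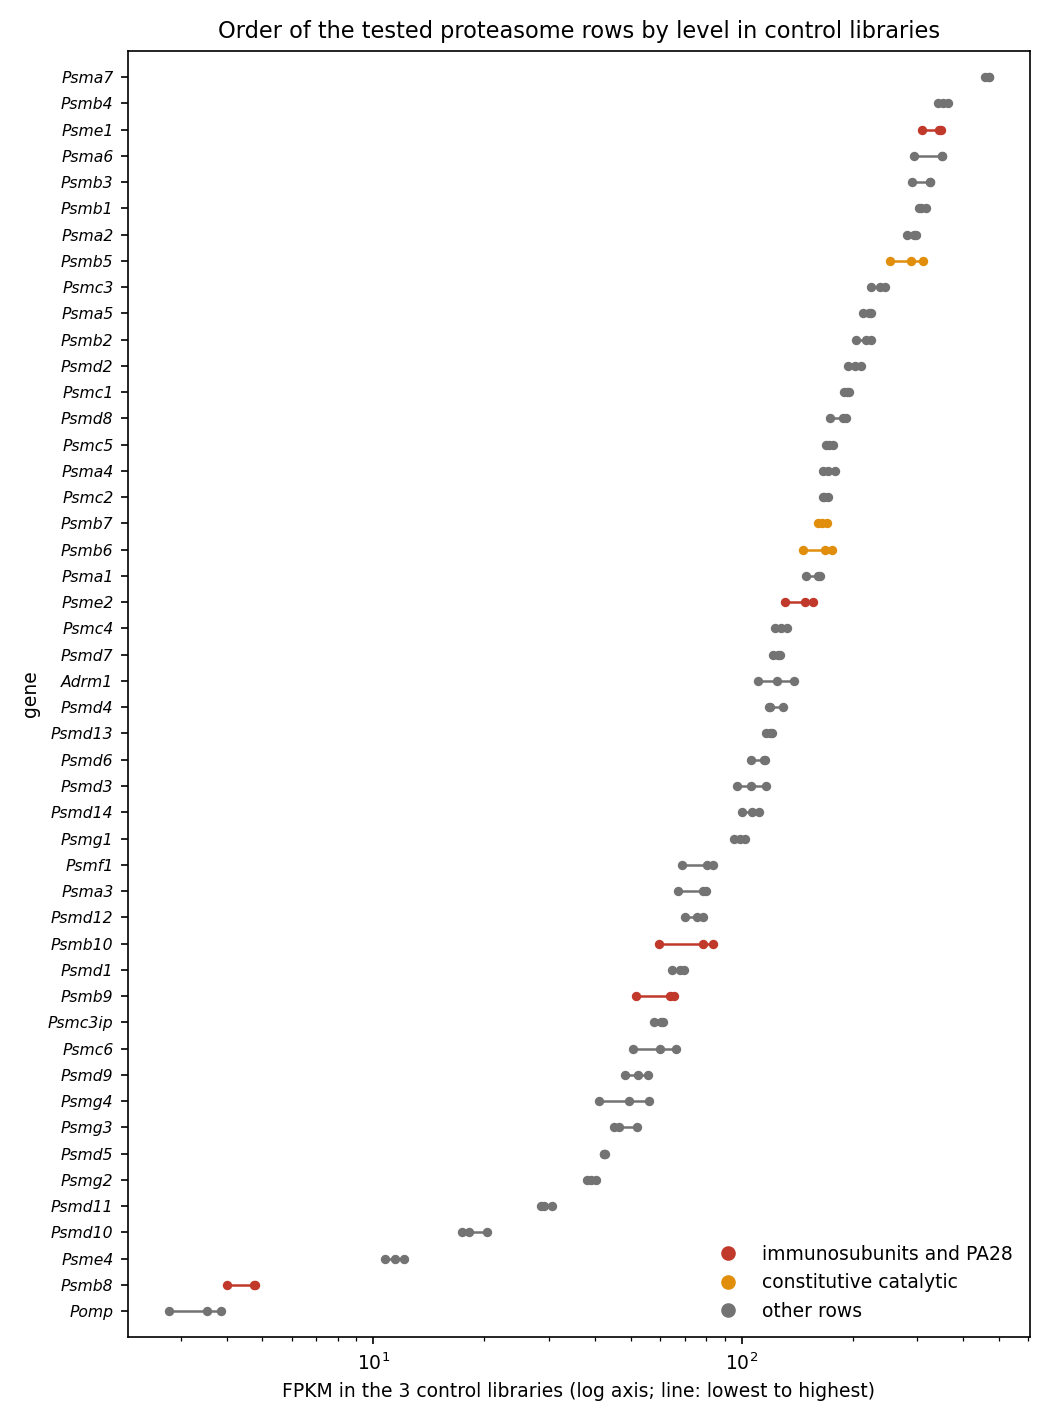
Level in FPKM (log axis) of the 48 tested rows in order of their control means, with 1 point for each of the 3 control libraries and a line between the lowest and the highest. Psme1 lies among the most abundant members at place 3 and Psmb8 near the end at place 47.

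Genes that work beside the immunoproteasome were examined from a list of 19 interferon signalling and class I genes, which had 20 rows because Tap2 had 2. EdgeR called 0 of 20 at an adjusted p under 0.05, while at an unadjusted p under 0.05 it took 7 as lower and 0 as higher, against 5.2% and 5.84% of all genes. DESeq2 called 3 lower, Irf1, Stat2 and Tapbpl, against 0.888% of all genes. With 1 library left out, its call of Irf1 was lost without control 2 (adjusted p = 0.107) and made in the other 5 fits, while those of Stat2 and Tapbpl were each made in only 2 of 6. The log2 change was below 0 in 17 of the 20 rows, against 48.3% of all genes, and the median was −0.20, or −0.15 without siHnrnpd 3. The 17 include both rows of Tap2, which rest on only 17 to 26 and 6 to 21 counts a library. The second of them had the lowest log2 change of the list, −0.70 (SE 0.398). Irf1, a transcription factor of the Psmb8, Psmb9 and Tap1 genes, had 77.5, 78.0 and 64.1 CPM in siHnrnpd 1 to 3, against 93.1, 104 and 105 CPM in control 1 to 3, without overlap and with a log2 change of −0.46 (adjusted p = 0.133, edgeR; −0.39 without siHnrnpd 3).

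Further down that list, B2m, the light chain of class I MHC, averaged 1508 ± 215.3 CPM in siHnrnpd and 1879 ± 128 CPM in control libraries (SD, n = 3 each; log2 change −0.32, adjusted p = 0.341, edgeR; −0.22 without siHnrnpd 3). The class I loading factor Tapbpl had a log2 change of −0.47 (adjusted p = 0.264, edgeR; −0.43 without siHnrnpd 3). Stat2, which acts in type I interferon signalling, had one of −0.55 (adjusted p = 0.313, edgeR), and −0.36 without siHnrnpd 3. Nlrc5, the transactivator of class I genes, had a log2 change of −0.15 (adjusted p = 0.774, edgeR; −0.13 without siHnrnpd 3). Tap1, the neighbour of Psmb9, had 158, 139 and 56.7 CPM in siHnrnpd 1 to 3 and 119, 166 and 153 CPM in control 1 to 3. Its groups overlapped, and its log2 change of −0.31 (adjusted p = 0.752, edgeR) became 0.014 without siHnrnpd 3. Unlike Psmb9, Tap1 was thus lower in siHnrnpd through that library alone. Irf1 and Tap1 were, like the immunosubunits, lowest in siHnrnpd 3, and their part in the result was not tested.

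The other companion lists held mixed values. Of 11 genes that act on proteasome gene transcription, edgeR called 0 and DESeq2 1, against 0.0815% and 1.37% of all genes. At an unadjusted p under 0.05 edgeR took 2 as higher and 0 as lower, against 5.84% and 5.2% of all genes. The median log2 change was 0.051, or −0.014 without siHnrnpd 3. Maff, a small MAF partner of NFE2L factors and the one that DESeq2 called (adjusted p = 0.0493, and between 0.0574 and 0.369 with 1 library left out), had 65.3, 60.1 and 62.8 CPM in siHnrnpd 1 to 3, against 48.3, 51.9 and 52.6 CPM in control 1 to 3, with a log2 change of 0.30 (adjusted p = 0.183, edgeR). Ddi2, the protease that activates NFE2L1, had a log2 change of 0.21 (adjusted p = 0.338), Nfe2l1 itself, the main activator of proteasome genes when the particle is inhibited, 0.16 (adjusted p = 0.452) and Mafk 0.15 (adjusted p = 0.479), all by edgeR. Of 10 tested proteasome-bound and import factors, edgeR called 0, with 1 lower at an unadjusted p under 0.05, against 5.2% of all genes. That gene was Usp14, a deubiquitinase of the 19S particle, with a log2 change of −0.46 (adjusted p = 0.438, edgeR). Its groups overlapped, with 63.35, 102.5 and 64.72 CPM in siHnrnpd 1 to 3 and 126.5, 105.9 and 84.3 CPM in control 1 to 3. The median of this list was −0.014, and the deubiquitinase Uchl5 stood at −0.22 (adjusted p = 0.661), Zfand5 at −0.17 (adjusted p = 0.693; −0.078 without siHnrnpd 3) and the 19S-bound thioredoxin Txnl1 at −0.052 (adjusted p = 0.862), all by edgeR. Of 13 tested ubiquitin genes, shuttles and unfoldase genes, edgeR called 0, with 1 higher at an unadjusted p under 0.05, against 5.84% of all genes. The median was −0.042, or 0.037 without siHnrnpd 3, and Rps27a, which encodes ubiquitin fused to a ribosomal protein, stood at −0.18 (adjusted p = 0.522), the shuttle Ubqln4 at −0.080 (adjusted p = 0.699) and the chaperone Bag6 at 0.092 (adjusted p = 0.719), all by edgeR. DESeq2 called 0 in both of these lists.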

How the data were processed

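RNA of 6 HEI-OC1 libraries was sequenced as paired ends. Per the submitters' processing notes, the authors aligned reads with TopHat2 and used the build mRatBN7.2. Counter, strand setting and annotation: not given in the sources used here; reads of overlapping genes therefore cannot be separated. One deposited table gives raw read counts, the other FPKM computed by the authors (per length and depth). Columns were matched to samples by name, and 0 columns had no sample.

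Counts were tested in R 4.3.3 with edgeR 4.0.16: TMM scaling, filterByExpr, a quasi-likelihood fit with group only, and p-values adjusted over 12268 genes by Benjamini-Hochberg, called below 0.05. CPM was computed with TMM-scaled library sizes. Pair ratios used FPKM and an exact permutation test. The edgeR test with these settings and the DESeq2 test were tried on simulated counts. The permutation test was checked on a small made-up example, and the other alternatives were not tried on simulated data. The biological coefficient of variation was 10.3%. The 15 pairs of libraries all differed beyond sampling noise.

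The members and lists were chosen with earlier results of these data known. Named with values were the interferon-inducible and constitutive catalytic members, members with an edgeR unadjusted p under 0.05 or a DESeq2 call, in each role the member with the smallest p and the one with the highest FPKM, and in each companion list the 4 smallest p plus 6 fixed genes, of which some are not reported here. Those called separated between groups are named by that count. Alternatives were DESeq2 1.42.0, limma-voom (limma 3.58.1), RLE and upper-quartile scaling, no filter or 50 counts or more in 3 libraries, a fit with a replicate block, fits with 1 library left out, and limma fits of the deposited FPKM as log2(FPKM + 1) or log2(FPKM + 0.1), which understates changes of low genes. Promoters came from RefSeq (GRCr8).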

Additional observations from a re-analysis of the deposited data

How the results depend on the processing

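Of the log2 changes of the named members under the alternatives, 334 kept their direction and side of the threshold, 6 turned in sign and 2 passed the threshold. The 2 were Psmb9 with DESeq2 (adjusted p = 0.0202) and in edgeR without a filter (adjusted p = 0.0310), so 1 member was called in each in place of 0. With DESeq2 and 1 library left out (chosen after seeing the data), its adjusted p was 0.0636 to 0.570. Over all alternatives its adjusted p spanned 0.0202 to 0.846. The 6 arose with 1 library left out: Psmb5 (range −0.0165 to 0.1276), Psmb7 (−0.044 to 0.0668, also −0.0017) and Psmf1 (−0.0214 to 0.1241) turned negative without control 1, Psmb7 also without siHnrnpd 1, where Psmg1 (−0.0023 to 0.1118) turned negative and Psme4 (−0.1175 to 0.0286) positive. Leaving out single libraries gave a median for the 5 interferon-inducible members of −0.48 to −0.22 (chosen after seeing the data), with siHnrnpd 3 at −0.22. The count of all genes called, 10, was 168 with DESeq2, 147 without a filter, 6 with upper-quartile scaling, 5 on log2(FPKM + 0.1), 0 on log2(FPKM + 1) with or without the minimum (1157 and 1604 at an unadjusted p under 0.05), and 0 to 14 with 1 library left out: 0 without control 1, 2 or 3 (964, 724 and 1919 at an unadjusted p under 0.05), 1 without siHnrnpd 1, 7 without siHnrnpd 2 and 14 without siHnrnpd 3. The cause was not tested. With the replicate block edgeR called 0 genes (1062 at an unadjusted p under 0.05) and 0 members (5). Same-numbered libraries deviated with correlations of −0.262, 0.137 and 0.104, and differently numbered ones with −0.332 to 0.232. The labels do not say what the number marks. So few libraries cannot show whether same-numbered ones shared a culture or day. Pair ratios and the share kept their direction throughout. Psmb8 rests on 166 to 410 counts a library and Pomp on 67 to 104.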

Other observations

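Near copies of members had rows of their own. The Psma3-like pseudogene LOC100361067 had 67 to 102 counts over the 6 libraries, the Pomp-like LOC100911238 had 11 to 24 and the Psmb3-like RGD1564425 had 0 to 2. The counts of Pomp itself, 67 to 104, were thus only a few times those of its near copy, and the levels of Pomp and Psma3 are uncertain, since the rule for reads that match several copies is not given in the sources used here. Sem1, a small lid subunit whose row is listed as Shfm1 and lies outside the symbol pattern, had a log2 change of 0.027.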
